A study of Mus musculus with 24 samples.

Results

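The genes of glutamate and GABA receptor subunits were taken by symbol from the platform annotation: symbols that begin with Gria, Grik, Grin, Grid, Grm, Gabr or Gabbr and go on with the letter or number of a subunit, with Grina and Grinl names left out. This gave 37 genes of the 19057 that had a probe with 1 symbol, each read on the probe with the highest mean of the authors' deposited log2 values. They comprised 4 AMPA, 5 kainate, 6 NMDA and 6 metabotropic glutamate receptor genes, and 11 GABA-A, 3 GABA-A rho and 2 GABA-B receptor genes. A gene was tested where its mean over all arrays, whatever the group, was above a log2 intensity of 7.09. Of the 37 genes, 30 passed and 7 did not: Grik3, Gabra5, Gabra6, Gabrq, Gabrr1, Gabrr2 and Gabrr3.

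Glutamate opens AMPA, kainate and NMDA receptors, which are cation channels built of several subunits, and acts more slowly through the metabotropic receptors, which couple to G proteins. GABA opens the chloride channels of GABA-A receptors and acts through GABA-B receptors, which couple to G proteins. The medium spiny neurons that make up most of the striatum receive their excitation as glutamate from cortex and thalamus, and themselves release GABA. The subunits that a cell makes set how fast its channels close, how much calcium they pass and whether they sit in synapses or outside them.

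RNA came from the striatum of C57BL/6J mice 6 to 10 weeks old, on 24 one-colour Illumina beadchip arrays in 4 groups of 6. Over a long period the mice had drunk either morphine, an opioid agonist, or saccharin, the sweet control drink, and all were killed 4 h after an injection of morphine at 20 mg/kg or of saline at 10 ml/kg. Every mouse had therefore both a drink and an injection, and no group went without either. The arrays lay on 6 chips, each with 1 array of every group, and chip was a fixed term in the fits below unless another is named; the labels do not say whether an array held 1 animal or a pool, so p-values measure the spread between these arrays only.

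Values are log2 intensities, and a difference of 1 is a doubling. Array medians of the raw intensity ranged from 164 to 543, and pairs of normalized arrays correlated at 0.935 to 0.993. Markers of medium spiny neurons, read as the mean of 17 genes, stood at 12.3 to 13.2 on 22 arrays. On the other 2 arrays they stood at 10.1. Both came from morphine drinkers on chip 2, replicate 32 after saline and replicate 31 after morphine, and all 17 markers were below the range of the other 22 arrays on both. Of 15 markers of cortical projection neurons, 3 were above that range on both arrays and 1 below, and of 10 markers of striatal interneurons 2 were below. The mean of the cortical markers was 11.3 to 11.4 on these 2 arrays, above the 9.9 to 11.2 of the other 22. The mean of the interneuron markers was 9.26 to 9.38, below the 9.85 to 10.34 of the other 22. Glial markers differed in part. Of 9 oligodendrocyte markers 4 were below the range on both arrays, but their mean, 12.34 to 12.42, lay inside its range of 12.33 to 12.97. Of 10 astrocyte markers only 1, Gfap, was above the range on both arrays, and their mean was 12.8 on both against 12.2 to 12.6. The counts of genes that pass are given with and without these 2 arrays, as are several of the differences they moved.

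Among the receptor genes, the 2 arrays differed most in Gabrd and Grm4. Gabrd encodes the delta subunit, found in GABA-A receptors outside synapses. Its log2 intensity was 10.64 on replicate 32 and 10.32 on replicate 31, and 11.81 to 12.56 on the other 22 arrays, so that the mean of the pair lay 3.26-fold below the median of the others. Grm4, the gene of the presynaptic receptor mGlu4, read 10.54 and 9.85 against 11.19 to 11.93, or 2.64-fold lower. Grik2, which encodes the kainate receptor subunit GluK2, read 10.36 and 10.23 against 10.41 to 11.54. These were the 3 receptor genes below the range of the other arrays on both.

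**Figure D1:**
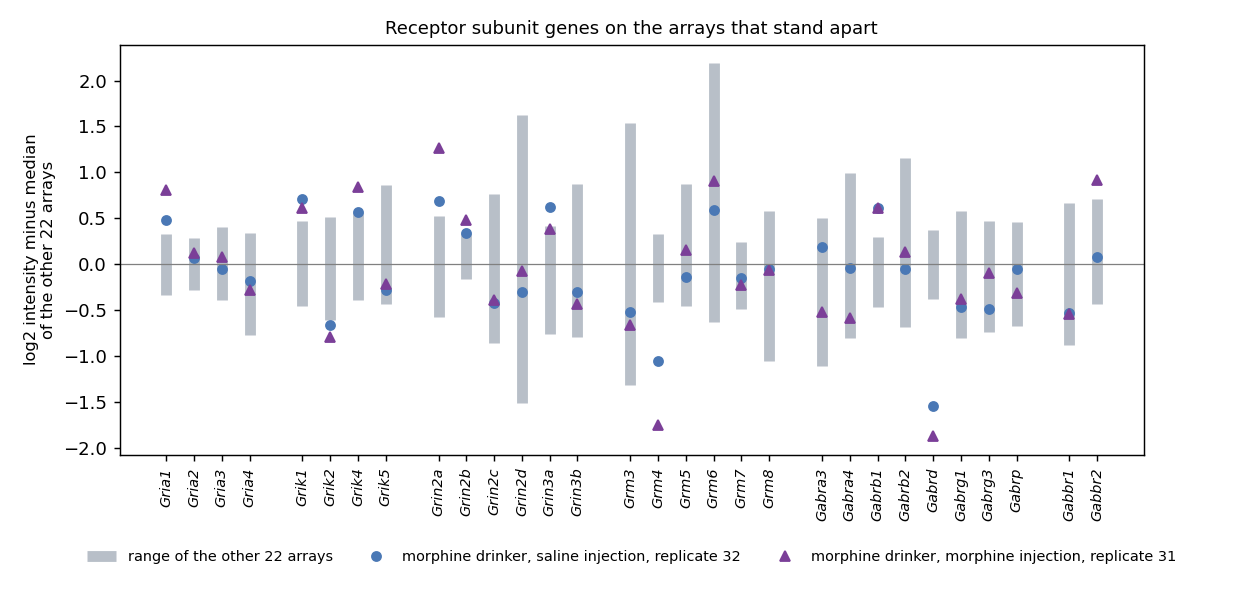
Log2 intensity of each of the 30 tested receptor genes on replicate 32 (circle) and replicate 31 (triangle), minus the gene's median over the other 22 arrays, with the range of those arrays as a grey bar. Gabrd and Grm4 lie far below their bars, and Grin2a, Gria1, Gabrb1, Grik1 and Grin2b lie above theirs on both arrays.

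A further 5 genes were above the range of the other arrays on both. Grin2a, the gene of the NMDA receptor subunit GluN2A, read 9.40 and 9.99 against 8.15 to 9.25. Grin2b, the gene of GluN2B, read 13.16 and 13.30 against 12.65 to 13.15, a smaller margin. Gria1, which encodes the AMPA receptor subunit GluA1, read 13.94 and 14.26 against 13.12 to 13.79. Channel genes of both transmitters were thus among those above the range: Gabrb1, the gene of a GABA-A beta subunit, read 12.66 on both arrays against 11.58 to 12.34. Grik1, the gene of the kainate receptor subunit GluK1, read 9.93 and 9.83 against 8.77 to 9.69. Grik4, Grin3a and Gabbr2 were above the range on 1 of the 2 arrays, and 19 of the 30 genes lay inside it. The 8 genes outside on both were 26.7% of the 30, against 8.6% of all 13742 genes tested (585 above and 597 below). The pair was named by the rule for these comparisons, so this is a description. In tissue RNA, fewer cells of a type and less RNA per cell cannot be told apart, and the part of the marker differences in these values was not tested.

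Second probes gave the same picture for some of these genes. The second probe of Gabrd read 10.44 and 9.92 against 11.52 to 12.34, and that of Gabrb1 read 11.53 and 11.65 against 10.98 to 11.37. Of the 3 further probes of Gria1, 1 was above its range on both arrays, at 12.33 and 12.68 against a highest value of 12.23 elsewhere. A dim second probe of Grm4 did not show the difference: it read 7.65 and 8.04, inside its range of 7.34 to 9.29. A dim second probe of Grin2b did not either: it read 7.11 and 6.81 against 6.92 to 7.91, below its range on replicate 31. The second probe of Grik2 and the 3 further probes of Grik1 above the filter were inside their ranges as well.

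**Figure D2:**
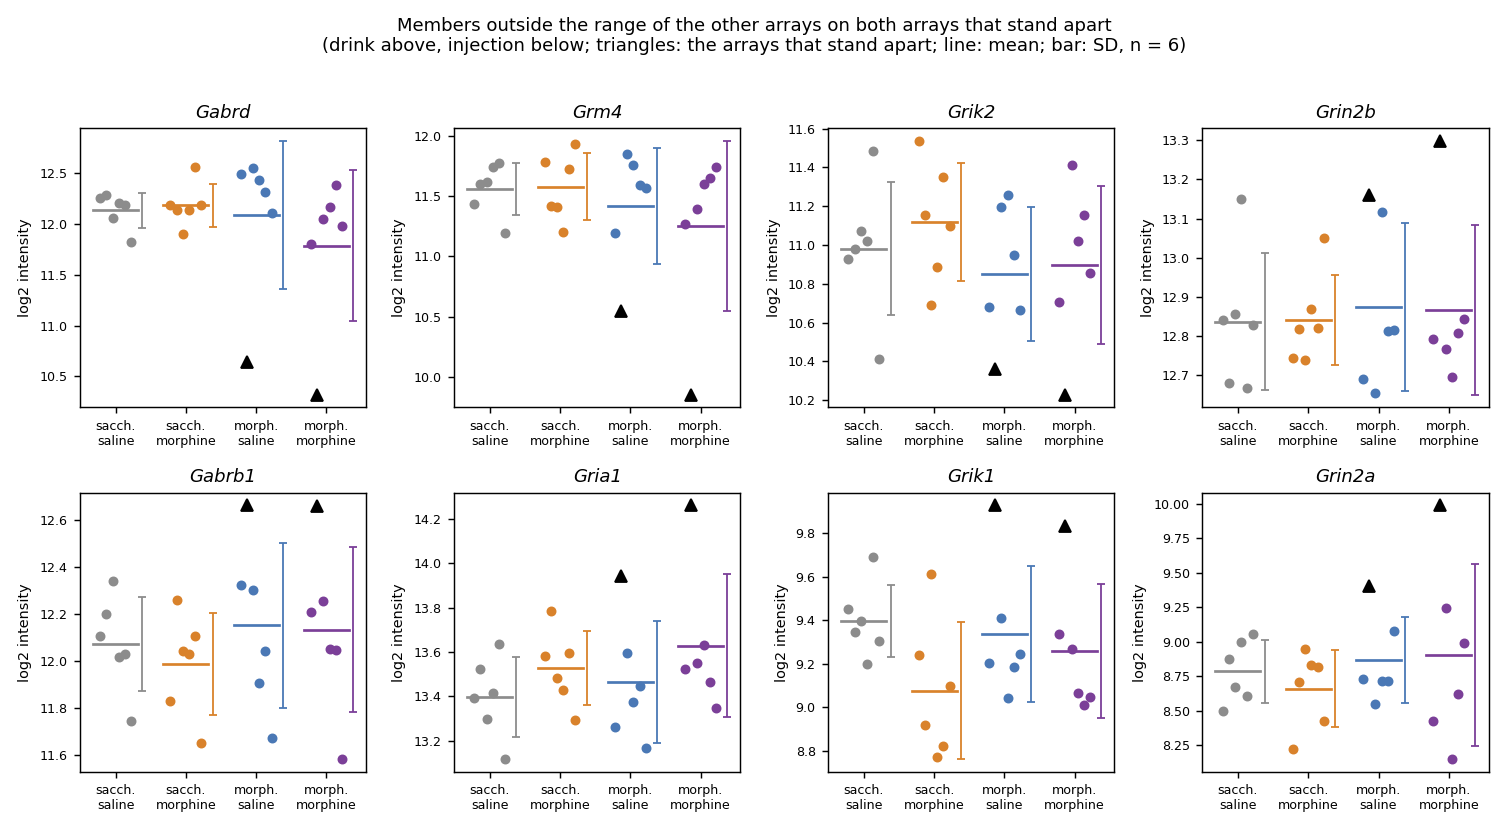
Log2 intensity of the 8 receptor genes that lay outside the range of the other arrays on both arrays that stand apart (black triangles), by group, with the other arrays as circles, the group mean as a line and the SD (n = 6) as a bar. Without the triangles the 4 groups overlap in every panel.

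The first comparison was the acute response: morphine against saline injection. In saccharin drinkers no receptor gene passed an adjusted p of 0.05 in limma, 0 of 30, where 0.371% of all genes tested did. The differences were split evenly, 15 genes higher and 15 lower after morphine, with a median of -0.00, close to the median of all genes, -0.01. At an unadjusted p under 0.05 the count was 2 of 30, or 6.67%, beside 7.68% of all genes, so the receptor genes passed at about the background rate. Without the 2 arrays 0 passed (0.429% of all genes) and the same number, 2, had an unadjusted p under 0.05 (9.39% of all genes). The even split was not stable to scaling: with arrays scaled to a common median it was 9 higher and 21 lower, while the median of all genes was -0.07.

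These 2 genes were Grm8 and Grik1. Grm8 encodes mGlu8, a presynaptic receptor that inhibits release. After saline it read 8.38 to 9.26 with a median of 8.73, and after morphine 7.62 to 8.77 with a median of 8.44. The groups overlapped, and the lowest values after morphine were on chips 1 and 2, where the within-chip differences were -1.36 and -1.16; on the other 4 chips they ran from -0.33 to 0.19. The fitted difference was -0.45 (SE 0.186, 95% interval -0.84 to -0.06), with an adjusted p of 0.602.

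Grik1 after saline read 9.20 to 9.69 with a median of 9.37, and after morphine 8.77 to 9.61 with a median of 9.01. Its value was lower after morphine on 5 of 6 chips, and the groups overlapped. The difference was -0.32 (SE 0.143, interval -0.62 to -0.02, adjusted p 0.619). Without the 2 arrays the estimate for saccharin drinkers did not move, but the smaller residual spread gave an SE of 0.103, an unadjusted p of 0.00668 and an adjusted p of 0.307. Its further probes differed among themselves in this comparison, at 0.21, -0.20 and -0.39.

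Next in order of p in saccharin drinkers came Grin3a, Grik5 and Gria2, each with an adjusted p between 0.751 and 0.754. Grin3a, the gene of a glycine-binding NMDA receptor subunit that lowers calcium entry, differed by -0.27 (SE 0.166). Grik5 encodes GluK5, a kainate receptor subunit that needs a partner such as GluK2, and differed by 0.25 (SE 0.159); its second probe gave 0.40 with an unadjusted p of 0.00478. The difference in Grik5 within chip 5 was 1.30, and without replicate 7 of the saccharin drinkers given morphine the fitted value was 0.10. Gria2 encodes GluA2, the subunit that makes AMPA receptors nearly impermeable to calcium. It was higher after morphine on 6 of 6 chips, but by 0.11 (SE 0.0723, interval -0.04 to 0.26). Its further probes gave 0.01 and 0.11, and with arrays scaled to a common median the difference was 0.03.

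**Figure D3:**
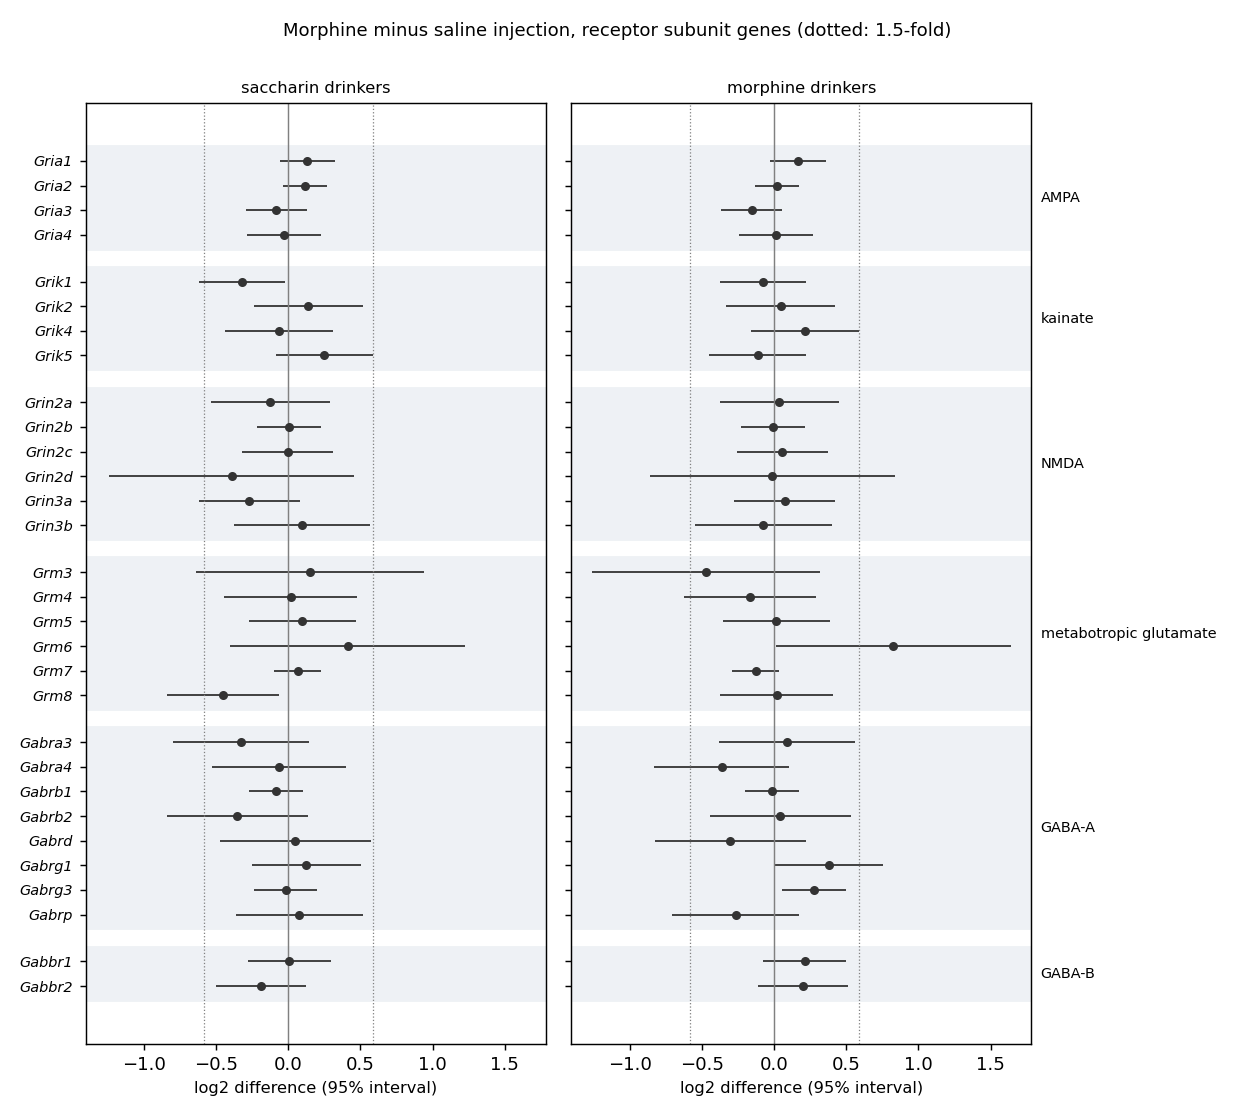
Log2 difference between morphine and saline injection for the 30 tested receptor genes, in saccharin drinkers (left) and morphine drinkers (right), with 95% intervals from limma; dotted lines mark 1.5-fold. Intervals are short for AMPA receptor genes and long for Grin2d, Grm3 and Grm6.

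In morphine drinkers, again, 0 of 30 receptor genes passed, where 0.0655% of all genes did, and 2 had an unadjusted p under 0.05 (6.67%, against 6.33% of all genes). Gabrg3, the gene of a gamma subunit of GABA-A receptors, read 8.81 to 9.73 after saline with a median of 9.37, and 9.33 to 9.95 after morphine with a median of 9.51. It was higher after morphine on 5 of 6 chips, and the groups overlapped. The difference was 0.27 (SE 0.105, interval 0.05 to 0.49), with an adjusted p of 0.669, and 0.25 without the 2 arrays.

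Grm6 encodes mGlu6, known from bipolar cells of the retina, and its probe lay just above the filter. It read 6.22 to 7.43 after saline and 6.51 to 9.03 after morphine, with medians of 6.92 and 7.82. The difference of 0.83 had an SE of 0.386 (adjusted p 0.779), was 0.93 without the 2 arrays, and values ranged over more than 2 units within the morphine group. Gabrg1, another gamma subunit gene, differed by 0.38 (SE 0.180, adjusted p 0.787; 0.43 without the 2 arrays), and Gria1 by 0.17 (SE 0.0911, adjusted p 0.855). Grm7, the gene of the presynaptic receptor mGlu7, differed by -0.13 (SE 0.0774) and was lower on 5 of 6 chips. Leaving out the 2 arrays raised the count with an unadjusted p under 0.05 to 4 of 30, or 13.3%, against 7.09% of all genes, and left the count of adjusted calls at 0, where 0.0873% of all genes passed. These were Gabrd, Gabrg3, Gabrg1 and Grm6.

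Averaged over both drinks, the acute response had a median SE of 0.126 over the receptor genes. It gave 0 calls among 30, where 0.691% of all genes passed, and 2 genes with an unadjusted p under 0.05, or 6.67%, against 8.32%. Without the 2 arrays 0 passed (0.706% of all genes), and 3 had an unadjusted p under 0.05 (9.14% of all genes). Gria1 had the smallest p of the receptor genes. It read 13.12 to 13.64 in saccharin drinkers after saline, with a median of 13.40, and 13.29 to 13.79 after morphine, with a median of 13.53. In morphine drinkers it read 13.17 to 13.94 after saline, with a median of 13.41, and 13.35 to 14.26 after morphine, with a median of 13.54.

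The medians of Gria1 were higher after morphine under both drinks, and every pair of groups overlapped. The averaged difference was 0.15 (SE 0.0644, interval 0.01 to 0.28), a fold of 1.11, with an adjusted p of 0.543; without the 2 arrays it was 0.13 and the adjusted p 0.451. The 3 further probes of Gria1 gave 0.11, 0.19 and 0.16. Grm6 differed by 0.62 (SE 0.273, adjusted p 0.560), Gabrg1 by 0.25 (adjusted p 0.646) and Gabrg3 by 0.13 (adjusted p 0.712). For Gabrg1 the value was 0.05 with array weights, and its 2 further probes above the filter gave -0.02 and -0.03. Grik1 differed by -0.20 (adjusted p 0.645), and by -0.20 without the 2 arrays, with an adjusted p of 0.415.

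**Figure D4:**
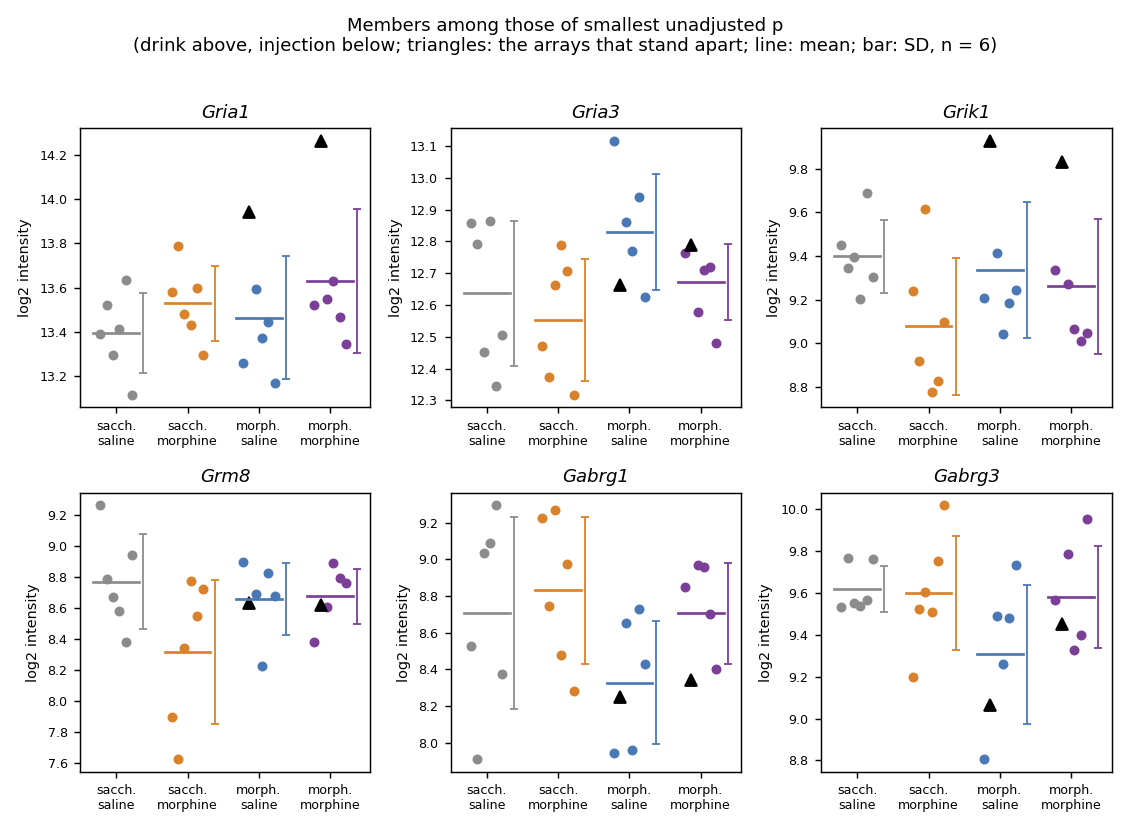
Log2 intensity of 6 receptor genes among those with the smallest unadjusted p, by group (drink above, injection below), with each array as a point, the 2 arrays that stand apart as triangles, the mean as a line and the SD (n = 6) as a bar. The groups overlap in each panel, and Gabrg3 is lowest in morphine drinkers given saline.

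The second comparison was the drink: morphine against saccharin drinkers under the same injection. Under saline, 0 of 30 receptor genes passed, as did 0% of all 13742 genes, and 1 had an unadjusted p under 0.05 (3.33%, against 4.55% of all genes). This was Gabrg3, which read 9.53 to 9.76 in saccharin drinkers with a median of 9.56, and 8.81 to 9.73 in morphine drinkers with a median of 9.37. It was lower in morphine drinkers on 6 of 6 chips, with differences of -0.73 and -0.70 on chips 1 and 2 and of -0.28 to -0.03 on the others.

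The fitted difference in Gabrg3 was -0.31 (SE 0.105, interval -0.53 to -0.09), a fold of 0.805, with an adjusted p of 0.988. Replicate 32 read 9.06, the second lowest of its group, and without the 2 arrays the difference was -0.26 with an adjusted p of 0.920. The same morphine drinkers given saline enter the acute comparison above, where Gabrg3 also had the smallest p. Morphine drinkers given morphine differed from saccharin drinkers given morphine by -0.02 (SE 0.105), and the averaged drink difference was -0.17 (SE 0.0742, adjusted p 0.904).

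The other genes named for this comparison each had an adjusted p of 0.988. Gabrg1 differed by -0.38 (SE 0.180), and a second probe of it by -0.43 with an unadjusted p of 0.0304. Without the 2 arrays 3 receptor genes had an unadjusted p under 0.05, Gabrg3, Gabrg1 and Gabrd, where 5.27% of all genes did. Gabrb2, the gene of a beta subunit common in synaptic GABA-A receptors, differed by -0.42 (SE 0.232), while its second probe gave 0.07. Gria3, an AMPA receptor gene, differed by 0.19 (SE 0.101). Gabra4, whose subunit pairs with delta outside synapses, differed by 0.32 (SE 0.222).

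Under the morphine injection 0 of 30 passed, as did 0% of all genes, and 1 had an unadjusted p under 0.05 (3.33%, against 5.52%). Gabbr2 encodes the GABA-B subunit that couples to the G protein. It read 7.17 to 7.88 in saccharin drinkers with a median of 7.55, and 7.44 to 8.52 in morphine drinkers with a median of 7.78, where the highest value was replicate 31. The groups overlapped. The difference was 0.35 (SE 0.149, adjusted p 0.869) with that array and 0.20 (SE 0.127) without the 2 arrays, when 0 receptor genes had an unadjusted p under 0.05 (4.96% of all genes).

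Under morphine, the drink differences of Gabrd and Grm4 moved most when the 2 arrays were left out. Gabrd differed by -0.40 (SE 0.249) with all arrays and by -0.09 (SE 0.115) without the pair. Grm4 differed by -0.33 (SE 0.218) and by -0.06 (SE 0.154). Grm3 went from -0.51 to -0.29. Under saline Gabrd turned from -0.05 to 0.25 (SE 0.115, adjusted p 0.920): within chips it was -1.65 on chip 2, which holds replicate 32, and 0.13 to 0.49 on the other 5. Among genes high on the 2 arrays, Grin2a went from 0.24 to 0.04 under morphine, Gabrb1 from 0.15 to 0.08, and Gria1 from 0.10 to 0.01. In contrast Grm8, higher in morphine drinkers on 6 of 6 chips, differed by 0.36 with all arrays and by 0.30 without the pair, with an adjusted p of 0.869 for all arrays. Saccharin drinkers given morphine had its lowest group mean, 8.32. They also enter its acute difference and its difference between responses, so these values are not independent. Grm7 differed by -0.13 under morphine (adjusted p 0.869).

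**Figure D5:**
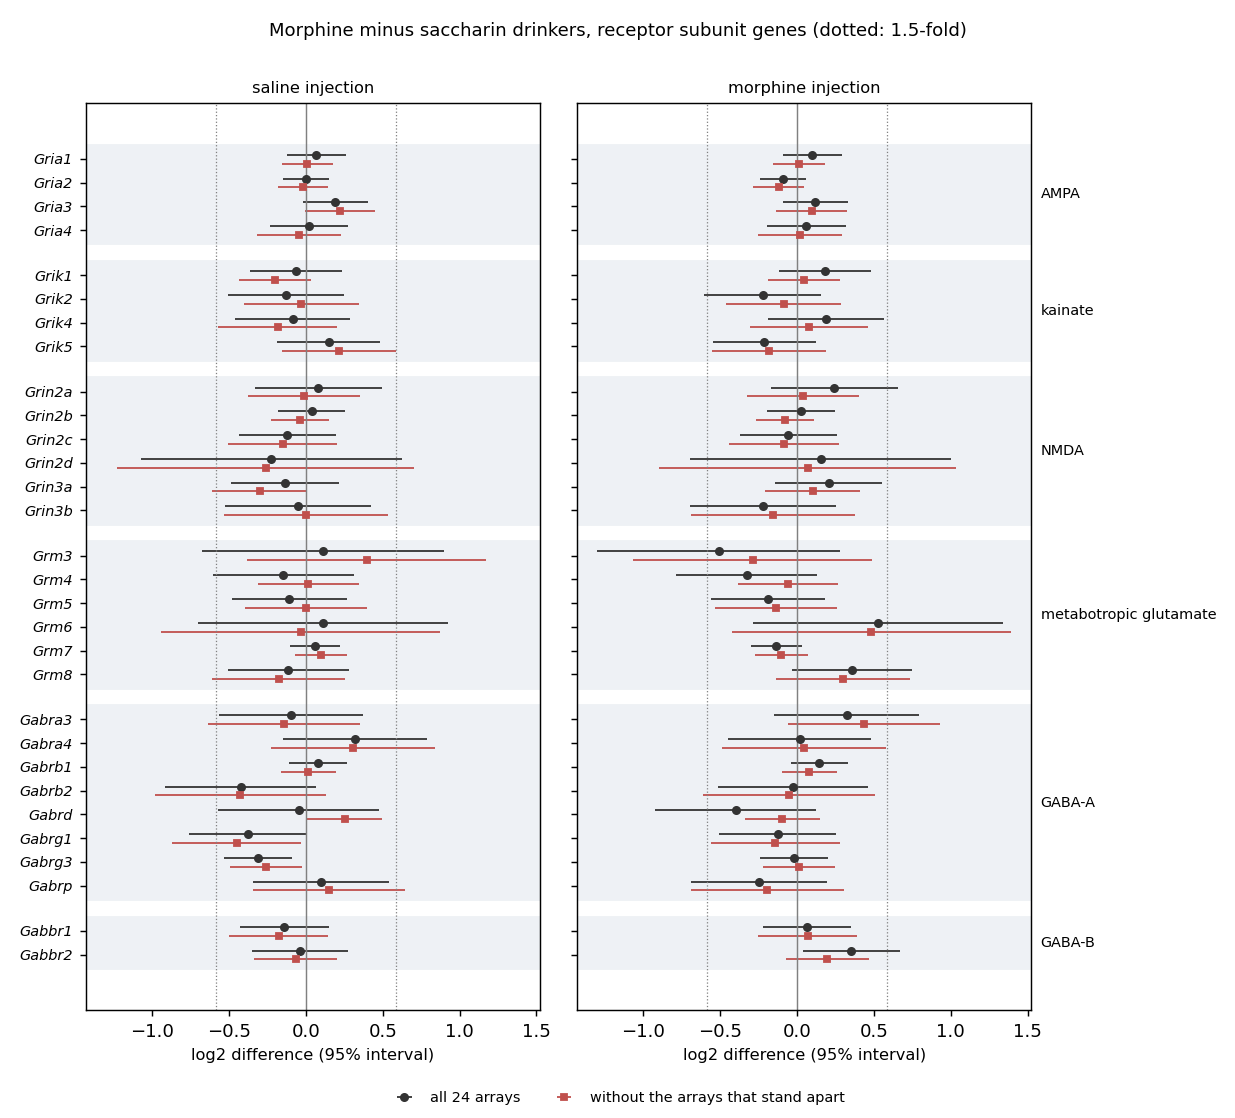
Log2 difference between morphine and saccharin drinkers for the 30 tested receptor genes under saline (left) and morphine (right), with 95% intervals from limma for all 24 arrays (black circles) and without the 2 arrays that stand apart (red squares); dotted lines mark 1.5-fold. The estimates of Gabrd and Grm4 move most towards 0 under morphine when the pair is left out.

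Averaged over injections the drink comparison called 0 of 30, as did 0% of all genes, and 2 genes had an unadjusted p under 0.05 (6.67%, against 5.24%): Gabrg3, above, and Gria3. Gria3 differed by 0.16 (SE 0.0711, adjusted p 0.904), was higher in morphine drinkers on 5 of 6 chips, and gave 0.16 again without the 2 arrays, but 0.08 with marker means of cortical and medium spiny neurons as covariates. Its 3 further probes gave 0.19, 0.15 and -0.07. Gabrg1 differed by -0.25, Gabrb1 by 0.11 and Grm4 by -0.24, each with an adjusted p of 0.904; Grm4 stood at -0.02 without the pair, when 0 receptor genes had an unadjusted p under 0.05 (4.18% of all genes).

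The third comparison asked whether the acute response differed between morphine and saccharin drinkers. It called 0 of 30 receptor genes and 0% of all genes, with 0 receptor genes at an unadjusted p under 0.05, against 5.28% of all genes. With marker means of cortical and medium spiny neurons as covariates in limma, 5 of 30 had one, the smallest 0.0113, and the smallest adjusted p was 0.642. The share of all genes in that fit was not counted, so whether 5 of 30 exceeds it is not known. Without the 2 arrays 0 of 30 and 0% of all genes passed here and in each drink comparison. Gabrd alone then had an unadjusted p under 0.05 for the difference between responses, at -0.35 (SE 0.159, adjusted p 0.740), where 6.75% of all genes did. The split was 17 higher and 13 lower, and 22 and 8 with arrays scaled to a common median, which moved the median of all genes to 0.10. The smallest p belonged to Gabrg3, with a difference between responses of 0.29 (SE 0.148, adjusted p 0.947). Gabbr2 followed with 0.39 and Grm8 with 0.47, at the same adjusted p. Grm7 gave -0.19 (SE 0.109, adjusted p 0.952), negative on 6 of 6 chips, and Grik5 gave -0.36 (adjusted p 0.956). With the 2 arrays left out, Gabbr2 gave 0.26, Grm8 0.47, Grm7 -0.20 and Grik5 -0.40. An F test over all 4 groups called 0 of 30, against 0.386% of all genes, and 1 had an unadjusted p under 0.05 (3.33%, against 6.83%): Gabrg3, with F of 3.95 and an adjusted p of 0.648. Without the 2 arrays 0 passed the F test (0.371% of all genes), and 1 had an unadjusted p under 0.05 (7.6% of all genes). This was a different gene, Grik1, with an unadjusted p of 0.0343 in the F test, against 0.167 with all arrays. Gabrg3 then had an F of 2.43 and an unadjusted p of 0.104.

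How much the arrays could have shown differed by gene. In saccharin drinkers the 95% interval of the acute difference lay within 1.5-fold in either direction for 22 of 30 receptor genes, or 73.3%, close to 71.1% of all genes. In morphine drinkers it did for 21. For the drink it did for 23 under saline and 18 under morphine, and without the 2 arrays for 20 and 22. Averaged over drinks the acute interval was that narrow for 27 of 30, against 88.8% of all genes. The difference between responses was measured less well, with 8 of 30 intervals within 1.5-fold, and 12 without the 2 arrays.

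By family, the 4 AMPA receptor genes were bounded most closely: each lay within 1.5-fold in all 7 comparisons. Of the 6 NMDA receptor genes, Grin2b and Grin2c also lay within 1.5-fold in all 7. The acute difference of Grin2b was 0.00 (SE 0.105) in saccharin drinkers and -0.01 in morphine drinkers. Grin2a gave -0.13 and 0.04 (SE 0.197). Grin2c, whose product is known from cerebellum and glia, gave -0.01 and 0.06, and Grin3b, the gene of a second glycine-binding subunit, gave 0.09 and -0.08. Grin2d, a subunit gene of interneurons, had the widest interval, -1.24 to 0.46 in saccharin drinkers.

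Among kainate receptor genes Grik2 differed after morphine by 0.14 (SE 0.180) and 0.04, and Grik4 by -0.06 and 0.21. Of the metabotropic genes, Grm5, whose product couples to calcium release in medium spiny neurons, gave 0.10 (SE 0.177) and 0.01. Grm4 gave 0.01 and -0.17. Grm3, a gene expressed in astrocytes as well as neurons, gave 0.15 and -0.47 with an SE of 0.375, and its interval reached past 1.5-fold in every comparison.

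Of the 8 tested GABA-A receptor genes, Gabrb1 was bounded best, with acute differences of -0.08 (SE 0.0893) and -0.02. Gabra3, the gene of a benzodiazepine-sensitive alpha subunit, gave -0.33 (SE 0.224) and 0.09. Gabrb2 gave -0.36 and 0.04, and Gabrp, the gene of the pi subunit known from the uterus, gave 0.08 and -0.27. Gabra4 gave -0.06 and -0.36. For Gabrd the acute differences were 0.05 and -0.30 (SE 0.249); it was lower after morphine on 5 of 6 chips in morphine drinkers, and without the pair the difference there was -0.30 (SE 0.117, unadjusted p 0.0211, adjusted p 0.610). The value was -0.50 without replicate 32 alone and -0.10 without replicate 31 alone. The GABA-B genes gave 0.01 and 0.21 for Gabbr1, which encodes the subunit that binds GABA, and -0.19 and 0.20 for Gabbr2. Single arrays moved both values of Gabbr2: the first was -0.09 without replicate 12 of the saccharin drinkers given morphine, and the second 0.05 without replicate 31.

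The spread between arrays of a group, after removing chip, differed widely among the receptor genes. The residual SD was 0.103 for Gria2 and 0.115 for Grm7, at percentiles 5.03 and 8.75 of all genes. It was 0.754 for Grin2d and 0.722 for Grm6, at percentiles 98.5 and 98.2. These 2 genes had mean log2 intensities of 7.31 and 7.13, near the filter. For Gabrd it was 0.461 with all arrays and 0.183 without the pair, and for Grm4 0.401 and 0.258. Gabrd therefore varied little outside the 2 arrays.

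The 7 receptor genes below the filter were Grik3, a kainate receptor gene, and 6 GABA-A genes, which include the 3 rho subunits known from the retina, alpha6, known from cerebellar granule cells, and alpha5, known from hippocampus. Their mean log2 intensities ran from 6.49 to 7.09. When they were fitted without a filter, none passed, and the smallest p among them was that of Grik3 for the drink averaged over injections, a difference of -0.42 with an unadjusted p of 0.00111 and an adjusted p of 0.777. Probe levels this low lie close to background, and detection p-values were not used here.

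The 30 tested genes had 39 further probes, of which 25 in 15 genes were above the filter. The further probes had the same sign as the probe used in 17 of 25 cases for each of the 3 acute comparisons, in 15 for the drink under saline, 19 under morphine and 19 averaged, and in 14 for the difference between responses. Probes of 1 gene share its RNA, so these counts carry no test.

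Other genes of the same synapses were read as well. Of 41 genes on the glutamate side (auxiliary subunits, scaffold proteins, transporters and kinases) 36 were tested, and of 30 on the GABA side 24, and 0 passed in any of the 7 comparisons, where between 0% and 0.691% of all genes did. The medians of the lists lay between -0.03 and 0.05, and those of all genes between -0.01 and 0.01. Cacng2 and Cacng8, which encode auxiliary subunits of AMPA receptors, differed between morphine and saccharin drinkers under saline by -0.34 (SE 0.0984) and -0.71 (SE 0.204), with an adjusted p of 0.988 each. They differed between the 2 acute responses by 0.44 and 0.86, with an adjusted p of 0.936. Camk2a, the gene of a kinase of the postsynaptic density, gave 0.39 for the drink under saline and -0.48 for the difference between responses. On the GABA side Slc6a11, the gene of the GABA transporter GAT-3, differed by -0.48 (SE 0.111, adjusted p 0.988) for the drink under saline. Its acute difference was 0.40 in morphine drinkers (adjusted p 0.311) and -0.22 in saccharin drinkers (adjusted p 0.681). The difference between its responses was 0.62 (SE 0.156, adjusted p 0.936). Apart from that of Slc6a11 in saccharin drinkers, the differences given for Cacng2, Cacng8, Camk2a and Slc6a11 use the same morphine drinkers given saline. They are therefore not independent. Trak2, the gene of a transport adaptor that binds GABA-A receptors, came closest to the threshold, with an averaged acute difference of 0.16 (SE 0.0442, adjusted p 0.128).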

How the data were processed

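Per the labels, total RNA was labelled as biotinylated cRNA. The authors deposited probe intensity on a linear scale, not normalized between arrays, and a table of log2 values; the array scale of the deposited log2 values matched quantile-normalized log2 intensities within 0.110. The file headers name no tool or earlier background step. In limma 3.58.1 (R 4.3.3) background was corrected by normexp (offset 50), arrays were quantile-normalized and log2 was taken. Each gene was read on the 1-symbol probe brightest in the deposited log2 values and kept if its mean exceeded percentile 40 over all probes, which left 13742 genes. Genes were fitted by lmFit and eBayes on group and chip over 24 arrays; two-sided p-values were adjusted by Benjamini-Hochberg over all genes. The number of arrays limits the precision. The fit was tested on simulated data.

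The members and lists were chosen with earlier results of these data known. Named genes are the 5 receptor genes of smallest p per comparison, those outside the range on both arrays apart, core subunits (some are not reported here), and the 3 pathway genes of smallest p per list and comparison, of which examples are given. Other genes of both synapses and 10 lists of cell type markers were read. Alternatives covered arrays, chip, background, scaling, filter, probes, weights, prior and marker covariates. No coordinates are given, since the annotation names no build. Figures used matplotlib 3.10.9 in Python 3.11.15.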

Additional observations from a re-analysis of the deposited data

Results flagged for a closer look

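In each group of 6 arrays the highest or lowest value of each tested receptor gene was set against the gap to its neighbour. Of 120 such groups, 11 held an array set far from the other 5. The cut-off is one that about 1 in 20 groups of independent values would pass. These groups share the same arrays, so that rate is not a background for the count. The same count over all genes was not made, so whether 11 is more than usual is not known. The 2 arrays with low medium spiny neuron markers account for 6 of the 11. On replicate 32 of morphine drinkers given saline, Gabrd read 10.64 with the nearest other array at 12.11, and Grik5 read 10.71, the lowest of its group. On replicate 31 of morphine drinkers given morphine, Gabrd read 10.32, Grm4 9.85, Gria1 14.26 and Grin2b 13.30. The nearest other arrays of that group read 11.81, 11.27, 13.63 and 12.84.

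The other 5 lay on arrays that do not stand apart in their markers. Replicate 37 of morphine drinkers given saline read low for Gabra3, at 8.11 with the nearest array at 9.09, and high for Grm5, at 11.98 with the nearest at 11.36. Replicate 12 of saccharin drinkers given morphine read 12.25 for Grm5 with the nearest at 11.50. Replicate 39 of morphine drinkers given morphine read 11.20 for Grik5, with the nearest at 10.92. Replicate 8 of saccharin drinkers given saline read 11.69 for Grm7, with the nearest at 12.10.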

How the results depend on the processing

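The count of receptor genes past the threshold was 0 in each comparison under all alternatives run, 40 for the 4 comparisons of 2 groups and 39 for the others, 24 of which leave out 1 array (0 to 0). The smallest adjusted p of a receptor gene was 0.198 for the acute response in saccharin drinkers, 0.325 in morphine drinkers, 0.136 averaged, 0.642 for the difference between responses and 0.420 for the F test, all with marker means as covariates. For the drink it was 0.757 under saline, 0.653 under morphine and 0.747 averaged, each with 1 array of saccharin drinkers left out. Of 4367 recomputed differences of named receptor genes 4153 kept their sign and 214 changed it, all of them from differences whose unadjusted p was not under 0.05; the cause was not tested. The counts of all genes moved more: for the acute response in saccharin drinkers from 51 to 10 under scaling to a common median, in morphine drinkers from 9 to 60 with array weights, averaged from 95 to 22 under the first, and for the F test from 53 to 8 and 88. With marker covariates the averaged drink split went from 14 higher and 16 lower to 10 and 20. A filter taken on the other 22 arrays, chosen after seeing the data, left 29 receptor genes. The groups share no replicate numbers, so arrays were matched by chip, which holds 1 array of each group. The number of arrays limits what small differences could be called, and dim probes such as Grin2d and Grm6 most.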
